A study of Mus musculus with 9 samples.

Results

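The 9 genes of the rod photoreceptor, Gnat1, Pde6g, Gngt1, Pdc, Rom1, Prph2, Rcvrn, Nrl and Sag, were followed in single-cell RNA libraries of retinal cells sorted for the immune surface proteins CD45 and CD11b. They were taken by symbol from the 27998 genes listed, of which 14425 had at least 1 unique molecular identifier (UMI, a tag that counts each captured RNA molecule once). All mice were female Arr1-/- mice, which lack visual arrestin, were reared in darkness and lose their photoreceptors in constant light of about 200 lux. The methods give their age as 2 to 5 months. Retinas were collected in darkness (day 0) or after 7 or 20 days of light, with 3 libraries per day and no light-exposed mice with intact arrestin among these samples. A legend of the study gives 8 retinas from 4 mice per day. Which mice went into which library is not stated, so every p-value below measures the spread between libraries that may share animals.

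In a rod, light-activated receptor switches on the G protein transducin, which releases cGMP phosphodiesterase from inhibition, and the fall in cGMP closes the channels of the outer segment. Arrestin, recoverin and phosducin tune or end this response, and the tetraspanins of the disc rim hold the outer segment membranes in shape. Microglia and macrophages are not known to make these proteins, although they engulf dying rods and their outer segments. Gnat1, Gngt1 and Nrl are rod genes, whereas several of the others, such as Rom1, Prph2 and Rcvrn, are also used by cones.

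Barcodes were split by 4 immune genes that are not among the 9. A barcode with 3 or more UMIs summed over Ctss, Fcer1g, Laptm5 and Tyrobp was called immune, and every remaining barcode was called other. The 9 libraries listed 5022 barcode entries made of 1365 different barcodes, and 612 of these occurred in more than 1 library. Each of these was therefore assigned to the library with its highest UMI total and left out of the others. The entries left out held 51.7% of all UMIs and 50.2% of the UMIs of the 9 genes. After this step there were 943 immune barcodes and 422 other barcodes. The immune barcodes of a library held 27015 to 303831 UMIs and the other barcodes 8742 to 39216. The kept barcodes carried 8668 UMIs of the 9 genes. Immune barcodes held 52.5% of these, and 88.3% of all UMIs.

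All 9 genes are protein coding, and none shares an exon on the same strand with another gene in GENCODE M21, the annotation of the same mouse build (mm10, GRCm38) as the files. Gnat1 lies at chr9:107674474-107679712 on the minus strand, Pde6g at chr11:120447605-120453500 (minus), Gngt1 at chr6:3993792-3997436 (plus) and Pdc at chr1:150319417-150333906 (plus). Rom1 lies at chr19:8927391-8929356 (minus), Prph2 at chr17:46910459-46924933 (plus), Rcvrn at chr11:67695326-67703333 (plus), Nrl at chr14:55518978-55524981 (minus) and Sag at chr1:87803680-87845158 (plus).

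RefSeq promoter sequence (GRCm38.p6) was at hand for 6 of the 9 genes. The 250 bases before each RefSeq start were searched on both strands. The first motif was the core of the photoreceptor homeodomain factor CRX (TAATCC, or GGATTA on the other strand). The second was a half-site of the rod factor NRL (TGCTGA, or TCAGCA). The CRX core was in 2 of the 6 windows, those of Gngt1 and Sag, and in 6.25% of all 32851 promoter windows of that length. The NRL half-site was in 1 of the 6, that of Sag, and in 16.1% of all windows. A match is a match of letters only, and a link between these motifs and the changes with light was not tested. Sag, whose window holds both motifs, had too few UMIs to be tested for a change. The 3 windows that end directly before the gene's start in both annotations are shown. They are those of Sag, the gene disrupted in these mice, with its motif matches in capitals, and of Pdc and Rom1, which hold neither motif. They lie at chr1:87803430-87803679 (plus strand), chr1:150319167-150319416 (plus) and chr19:8929357-8929606 (minus).
Sag: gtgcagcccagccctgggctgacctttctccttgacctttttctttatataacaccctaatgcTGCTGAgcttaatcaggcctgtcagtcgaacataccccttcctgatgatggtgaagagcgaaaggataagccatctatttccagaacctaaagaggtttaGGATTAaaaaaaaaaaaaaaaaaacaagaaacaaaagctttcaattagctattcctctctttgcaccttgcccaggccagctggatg
Pdc: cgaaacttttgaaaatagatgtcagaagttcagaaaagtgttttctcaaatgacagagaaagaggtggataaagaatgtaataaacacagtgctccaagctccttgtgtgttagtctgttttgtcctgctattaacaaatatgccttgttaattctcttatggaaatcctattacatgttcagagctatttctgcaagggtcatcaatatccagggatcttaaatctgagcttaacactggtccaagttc
Rom1: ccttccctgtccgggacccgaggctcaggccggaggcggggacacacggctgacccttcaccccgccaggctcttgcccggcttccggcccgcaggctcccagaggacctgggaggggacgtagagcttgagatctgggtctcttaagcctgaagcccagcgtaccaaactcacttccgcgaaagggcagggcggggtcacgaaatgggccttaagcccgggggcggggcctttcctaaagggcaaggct

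In the sorted immune barcodes, RNA of the 9 rod genes was highest before light. It made up 0.935%, 0.141% and 1.30% of the UMIs of immune barcodes in the 3 day 0 libraries, a mean of 0.791% ± 0.592 (SD, n = 3 libraries). At day 7 the libraries had 0.146%, 0.0267% and 0.133% (0.102% ± 0.0657), and at day 20 they had 0.0794%, 0.0425% and 0.0284% (0.0501% ± 0.0263). All 6 libraries from light lay below the mean of day 0, but the lowest day 0 library, replicate 2, was at about the level of the highest at day 7, so days 0 and 7 overlapped. Days 7 and 20 also overlapped. In the deposited counts, where a barcode counts in every library that lists it, the means were 0.509% ± 0.326, 0.0597% ± 0.0463 and 0.0511% ± 0.0195.

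**Figure D1:**
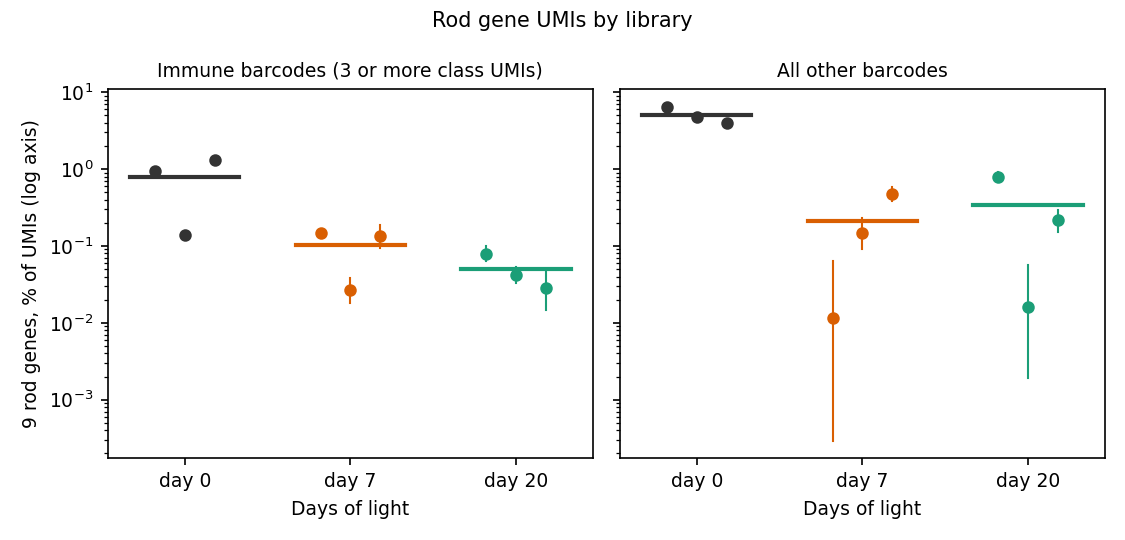
Summed UMIs of the 9 rod genes as a percent of all UMIs (log axis) in immune barcodes (left) and other barcodes (right), by days of light. Points are libraries with exact 95% binomial intervals and thick lines are means of 3 libraries; the day 0 means of 0.791% and 5.06% lie above the means of days 7 and 20 in both panels.

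More immune barcodes carried rod RNA before light as well. At day 0, 252 of 354 immune barcodes had at least 1 UMI of the 9 genes, against 101 of 333 at day 7 and 65 of 256 at day 20. Deeper barcodes catch more rare RNA, so barcodes were thinned to 451 UMIs each, which left out 92, 61 and 81 shallower barcodes. The share of immune barcodes with a rod UMI (SD, n = 3 libraries) was then 63.4% ± 30.0 before light, 20.5% ± 11.7 after 7 days and 16.9% ± 12.03 after 20 days. Without thinning the shares were 72.4% ± 18.1, 36.1% ± 14.0 and 25.8% ± 8.71. After thinning, the day 0 libraries ranged from 28.9% to 83.3%, day 7 from 13.5% to 34.0% and day 20 from 7.44% to 30.4%. Day 0 thus overlapped day 7 and day 20, in each case through a single day 0 library. Among other barcodes thinned alike the shares were 88.4% ± 5.60, 22.6% ± 27.6 and 27.5% ± 29.2. Thinning left out 85 of 139, 98 of 120 and 138 of 163 other barcodes, so these shares rest on few of them. Unthinned, the shares of other barcodes were 75.8% ± 24.1, 19.0% ± 17.8 and 18.9% ± 13.5. Of the day 0 immune barcodes, 82 carried UMIs of 1 of the 9 genes, 110 carried 2 to 4 of them, and 60 carried 5 or more.

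Gngt1, Pde6g and Gnat1 had the highest mean levels of the 9 in immune barcodes at day 0. Gnat1, the alpha subunit of rod transducin, had 1732, 279.7 and 2087 CPM (UMIs of the gene per 1000000 UMIs of the immune barcodes of a library) in the 3 day 0 libraries. It had 151, 27.6 and 259 CPM at day 7 and 196, 69.8 and 94.6 CPM at day 20. Every library from light was below every day 0 library, and Gnat1 was lower by 3.24 ± 0.63 on the log2 scale at day 7 (SE, edgeR adjusted p = 0.00151) and by 3.41 ± 0.63 at day 20 (adjusted p = 0.00310). Gngt1, the gamma subunit of the same G protein, had 1928, 289 and 2488 CPM at day 0. At day 7 it had 487, 101 and 370 CPM, so that replicate 2 of day 0 lay within the day 7 range, and at day 20 it had 157, 105 and 47.3 CPM. Gngt1 fell by 2.08 ± 0.59 on the log2 scale at day 7 (edgeR adjusted p = 0.0442), the smallest of the changes, and by 3.72 ± 0.65 at day 20 (adjusted p = 0.00171).

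Pde6g, the inhibitory subunit of the rod cGMP phosphodiesterase, had 1424, 294 and 2732 CPM at day 0. It had 260.0, 46.0 and 111 CPM at day 7 and 58.8, 69.8 and 70.9 CPM at day 20, all below day 0. Its log2 change was −3.00 ± 0.61 at day 7 and −4.37 ± 0.68 at day 20 (edgeR adjusted p = 0.00247 and 0.000526). Pdc encodes phosducin, which binds transducin's beta and gamma subunits. Pdc had 863, 99.6 and 1111 CPM at day 0, then 75.7, 9.21 and 74.0 CPM at day 7 and 78.4, 34.9 and 0 CPM at day 20, again without overlap. Rcvrn, which encodes the calcium sensor recoverin, had 678, 94.8 and 939 CPM at day 0, and a day 7 library with 128 CPM reached above the lowest of these.

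The disc rim genes behaved alike. Rom1 had 1297, 180.1 and 1635 CPM at day 0 and 168, 27.6 and 407 CPM at day 7, and Prph2 had 1043, 99.6 and 1628 CPM at day 0 and 171, 18.4 and 37.0 CPM at day 7. In each, the highest day 7 library lay above the lowest day 0 library, whereas all day 20 libraries, at 23.6 to 147 CPM, were below day 0. Nrl, the transcription factor that sets rod identity, was the scarcest tested gene, with 381, 66.4 and 359 CPM at day 0. Only 6 UMIs of Nrl remained in immune barcodes at day 7 and 3 at day 20. From the counts, its day 0 level was 18.5 times that of day 7 (exact 95% interval 8.27 to 51.2, counting error only) and 26.6 times that of day 20 (8.91 to 131). With 9 UMIs after light, Nrl passed the filter of the tests below only through day 0. These ratios therefore describe its counts and are no separate support for a fall.

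**Figure D2:**
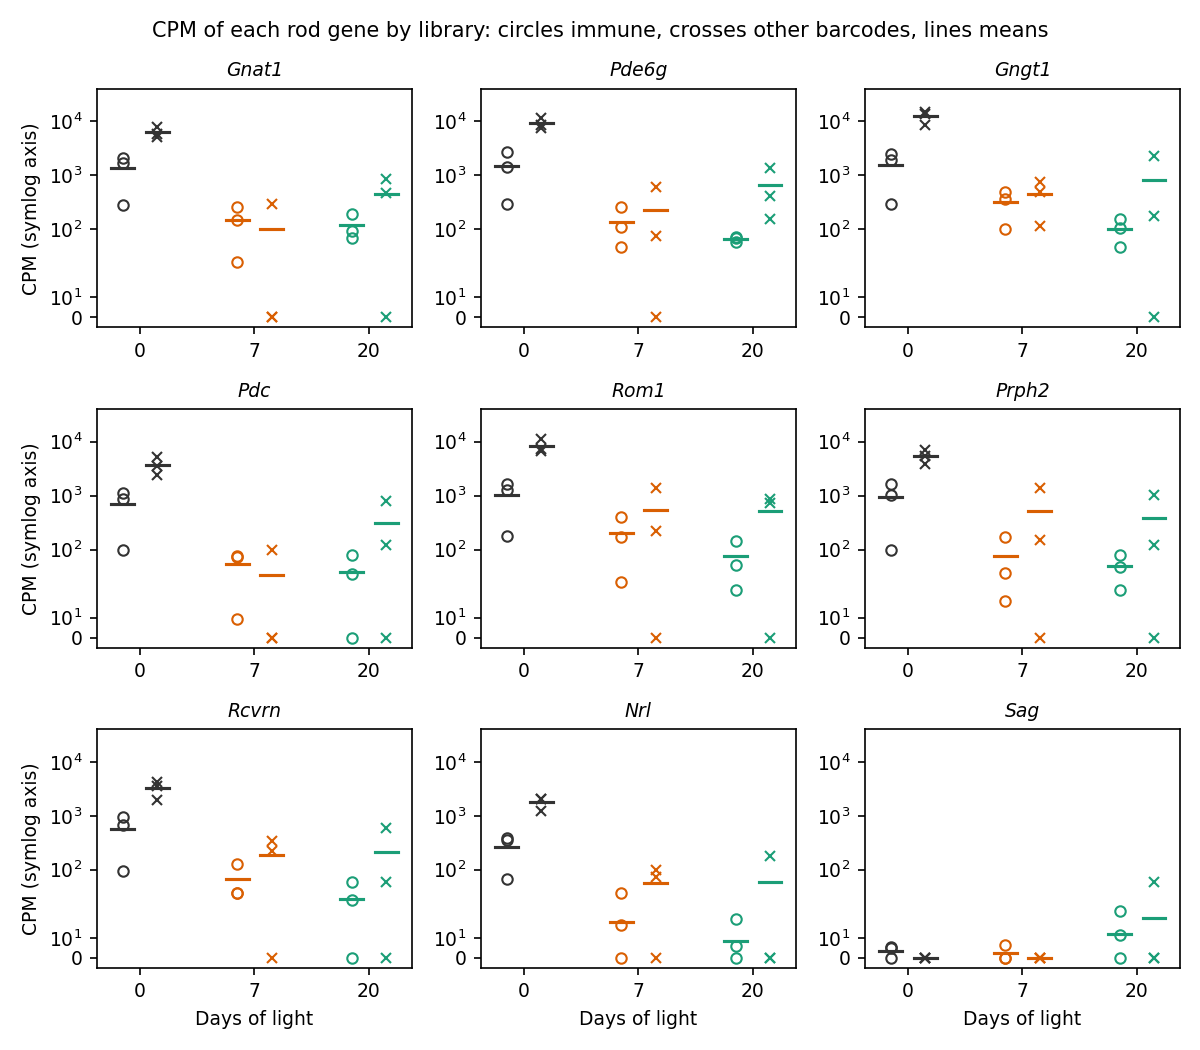
CPM of each of the 9 rod genes (symlog axis, linear under 30) by days of light. Circles are libraries of immune barcodes, crosses libraries of other barcodes and lines means of 3 libraries; for 8 genes the day 0 means lie above those of days 7 and 20 in both classes, and Sag stays near 0.

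In the immune barcodes, 8 of the 9 genes passed the filter of 20 UMIs over all libraries and were tested, and Sag, with 7 UMIs, was not. Nrl had 9 UMIs after light and passed only through day 0, so its direction was fixed by the filter. The largest change given below for each day, −3.96 and −4.57, was that of Nrl. The other 7 genes had at least 20 UMIs after light and were called at both days. All 8 fell at day 7, with log2 changes of −2.08 to −3.96 (edgeR quasi-likelihood, adjusted p at most 0.0442), against a background of 2.26% of 5573 genes called lower. All 8 fell at day 20, with log2 changes of −3.41 to −4.57 (adjusted p at most 0.00497), against a background of 0.467%. DESeq2 called 6 of the 8 at day 7, without Prph2 and Rom1, and 8 at day 20, where it called 174 and 51 of the 5573 genes in either direction. The median log2 change of the 8 was −2.99 at day 7 and −3.87 at day 20, while that of all tested genes was −0.16 and −0.13. Both comparisons share the day 0 libraries. From day 7 to day 20 edgeR called 0 of the 8, against a background of 0.484% called in either direction, and DESeq2 called 0. An unadjusted edgeR p under 0.05 was found for 1 of the 8 and for 408 of all 5573 genes. The log2 changes of the 8 ran from −1.63 to −0.17, with standard errors of 0.64 to 1.15. Single libraries decided the day 7 count, which was 5 without day 0 replicate 1 or without day 0 replicate 3 and 4 without day 7 replicate 2. The share of all genes called in these fits was not counted.

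The rod RNA was not spread evenly over the immune barcodes. In 29 of the 943 immune barcodes the 9 genes made up at least 2% of UMIs, a level chosen after the values were seen, and these 29 held 3089 of the 4549 rod UMIs of the class (67.9%). Their immune label was weak. The 4 class genes made up 0.267% of their UMIs and 9 microglia and macrophage genes 0.381%, compared with 1.48% and 2.72% in the other 914 immune barcodes. They were deep, with a median of 1567 UMIs against 779, and had a median of 4 class UMIs, just above the limit of 3. Ptprc and Itgam, which encode CD45 and CD11b, had 4 UMIs among the 55891 of the 29 and 420 among the 1239039 of the 914. Day 0 held 24 of the 29, 4 were in day 7 replicate 1 and 1 in day 20 replicate 2. The barcode with the most rod RNA, in day 0 replicate 3, had 514 rod UMIs among 10060. By comparison, 85 of the 422 other barcodes reached 2% and held 95.3% of the rod UMIs of their class. On either side of the class limit, the 101 barcodes with 3 class UMIs had 1.42% rod RNA and the 100 with 2 had 2.74%.

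**Figure D3:**
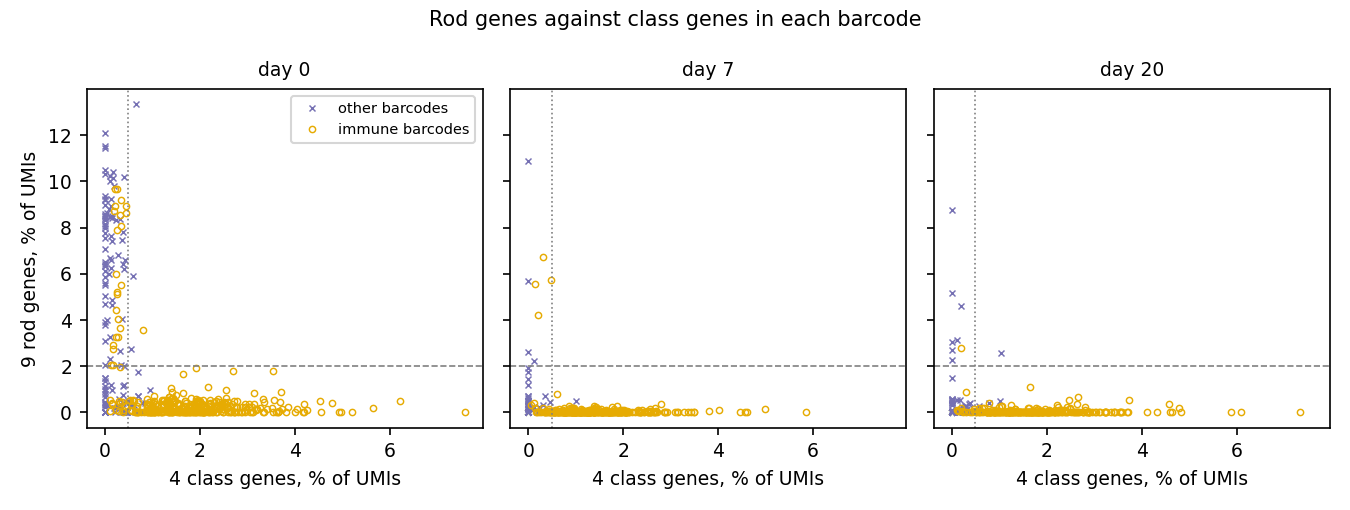
Percent of UMIs in the 9 rod genes against percent in the 4 class genes for each kept barcode at days 0, 7 and 20 (circles immune, crosses other). The dashed line is at 2% rod genes and the dotted line at 0.5% class genes; 28 of the 29 immune barcodes with 2% or more rod RNA lie left of the dotted line.

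Immune barcodes in which the class genes also made up at least 0.5% of UMIs are called strict immune barcodes here. They numbered 866, and 1 of them had 2% or more rod RNA. The 77 immune barcodes left out held 3266 of the 4549 rod UMIs of the class, so a lower rod level in strict barcodes follows from the choice. Their rod RNA was lower than in the full class at each day, with means over 3 libraries of 0.268% ± 0.176 (SD) before light, 0.0432% ± 0.0260 after 7 days and 0.0384% ± 0.0310 after 20 days. The means after light were again below that of day 0, but the libraries overlapped. Day 0 replicate 2, at 0.0677%, lay below day 7 replicate 3 (0.0732%) and day 20 replicate 1 (0.0733%). Of the 8 tested genes, Pdc, Prph2, Rcvrn and Nrl had 3 to 18 UMIs here after light and passed the filter only through day 0, so their direction was fixed by it. The remaining 4, Gnat1, Gngt1, Pde6g and Rom1, were called lower at day 7 and at day 20, against backgrounds of 5.2% and 0.805% of genes called lower. Among these, Rom1 overlapped between days. In strict barcodes it had 61.6 CPM in day 0 replicate 2, 157 in day 7 replicate 3 and 97.7 in day 20 replicate 1. Gnat1 fell by 3.32 ± 0.54 and by 3.03 ± 0.52 on the log2 scale, and Pde6g fell by 3.13 ± 0.54 and by 3.19 ± 0.53. From day 7 to day 20 none of the 8 was called, and their median change was 0.07. The share of all genes called in this comparison was not counted, so the count cannot be read as a result about the 8. The strict class was added after the data were seen.

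Other barcodes carried far more rod RNA before light. The 9 genes made up 6.35%, 4.82% and 3.998% of their UMIs at day 0, a mean of 5.06% ± 1.20. At day 7 they made up 0.0114%, 0.149% and 0.473% (0.211% ± 0.237) and at day 20 0.793%, 0.0158% and 0.214% (0.341% ± 0.404). Day 0 stood apart from every library of light, while the libraries of light overlapped between days. Day 7 replicate 1 had a single rod UMI, of Gngt1, in its other barcodes, although 4 barcodes of its immune class exceeded 2%. At day 0 Gngt1 was the most abundant of the 9, with 14788, 13916 and 8542 CPM, followed by Pde6g, with 11792, 8775 and 7446 CPM. All 8 tested genes fell at day 7 and at day 20 (edgeR adjusted p at most 0.00337 and 0.000674), against backgrounds of 6.67% and 5.42% of 1034 genes called lower. Here too Nrl, with 127 UMIs at day 0 and 7 after light, passed the filter only through day 0. DESeq2 called 7 of the 8 at each day, without Prph2, and 52 and 37 of the 1034 genes in either direction at days 7 and 20. Some counts after light were very low. Pdc had 2 UMIs at day 7, and its day 0 level was 82.8 times that (exact 95% interval 22.7 to 687, counting error only); Nrl had 3, a ratio of 23.3 (7.79 to 114). From day 7 to day 20 edgeR called 0 of the 8, against a background of 0% of the 1034 genes, and DESeq2 called 0. An unadjusted edgeR p under 0.05 was found for 1 of the 8 and for 41 of the 1034.

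**Figure D4:**
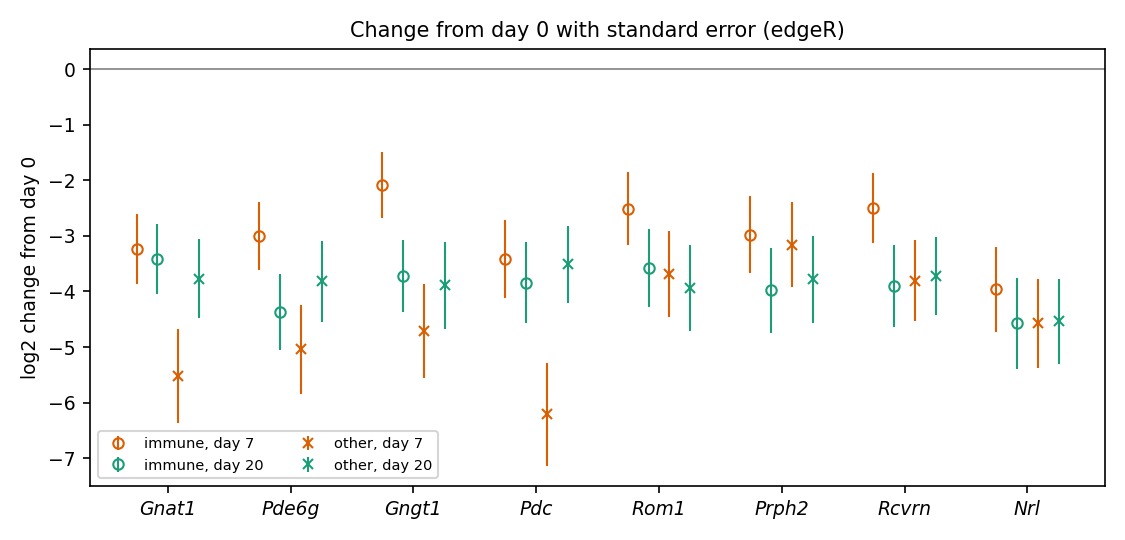
Fitted log2 change from day 0 with its standard error (edgeR) for the 8 tested rod genes, in immune barcodes (circles) and other barcodes (crosses) at day 7 and day 20. All points lie below 0; those of Nrl, and of Pdc in other barcodes at day 7, rest on very few UMIs after light.

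The result for other barcodes depended on how barcodes shared between libraries were counted. Other barcodes held 5566, 3299 and 3146 rod UMIs at days 0, 7 and 20 in the deposited counts. With each barcode kept in 1 library they held 3788, 116 and 215, so the step removed far more of the rod UMIs after light. In the deposited counts their rod RNA was 2.90% ± 0.503 before light, 1.66% ± 0.398 after 7 days and 1.49% ± 0.143 after 20 days, and 2 of 8 genes were called lower at day 7 and 6 at day 20, against backgrounds of 0.222% and 0.555% of 3606 genes. In immune barcodes the deposited counts gave 6 of 8 at day 7 and 7 of 8 at day 20, against backgrounds of 0.451% and 0.205% of 7323 genes.

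Levels were next compared between the classes within libraries. Averaged over the days, 6 of the 8 tested genes were higher in other barcodes (edgeR with library as a block, against a background of 1.03% of 6187 genes called higher there). Prph2 differed most, by 1.94 ± 0.33 on the log2 scale (adjusted p = 1.6e-07), and Rom1 by 1.74 ± 0.29 (adjusted p = 9.78e-08). Gnat1, at 0.62 ± 0.35 (adjusted p = 0.228), and Pdc, at 1.04 ± 0.55 (adjusted p = 0.199), did not pass. All 8 were called higher with DESeq2 size factors and by DESeq2 itself, and 7, without Pdc, with library totals. DESeq2 called 367 of the 6187 genes in either direction. The share of all genes called higher with DESeq2 size factors or library totals was not counted. In the deposited counts all 8 were called higher, against a background of 13.3%. Scaling shifts these values, since the median of all genes was −1.14 with TMM, −0.41 with DESeq2 size factors and −0.52 with library totals; relative to it, the median of the rod genes was 2.71, 2.84 and 2.84 higher. The count of called rod genes was 2 without day 7 replicate 3 and 2 without day 20 replicate 1, and the share of all genes called there was not counted. Against strict immune barcodes all 8 were higher in other barcodes, from 1.13 for Gnat1 to 3.09 for Prph2 on the log2 scale, against a background of 2.48%. Strict barcodes leave out most rod UMIs of the immune class, so a wider gap follows from that choice and is no separate support.

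The difference between the classes was smaller after light than at day 0 for all 8 genes, by 0.86 to 2.04 on the log2 scale. After adjustment edgeR called 0 of the 8, against a background of 0.0485% called, and DESeq2 called 0. An unadjusted edgeR p under 0.05 was found for 5 of the 8 and for 211 of all 6187 genes. Gngt1 had the smallest p, with a log2 difference of −1.97 ± 0.51 (edgeR adjusted p = 0.129), and Gnat1 had −2.04 ± 0.58 (adjusted p = 0.199). Against strict immune barcodes Gngt1 passed, at −2.89 ± 0.54 (edgeR adjusted p = 0.000121), but the share of all genes called there was not counted. The strict class was defined after the data were seen and leaves out most rod UMIs of the immune class. This value is therefore no separate support. Without a single library between 0 and 3 of the 8 were called, and the share of all genes called was not counted. The count was 3 without day 7 replicate 3, 2 without day 20 replicate 3, and 1 without day 0 replicate 3, day 7 replicate 2 or day 20 replicate 1. In the deposited counts the direction was the reverse, with the difference larger after light and all 8 genes called, against a background of 0.641% of 8424 genes called in that direction.

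The mix of rod RNAs was compared between the classes. In strict immune barcodes at day 0, Gnat1 was the most abundant of the 9, with 34.1%, 31.1% and 28.5% of their rod UMIs in the 3 libraries. In other barcodes of the same libraries it made up 12.6%, 11.9% and 13.0%, and the exact 95% intervals of the classes did not meet in any of the 3, although these cover counting error only. Gngt1, which led in other barcodes with 23.3%, 28.9% and 21.4%, made up 11.5%, 21.2% and 11.3% in strict immune barcodes. In the 24 immune barcodes rich in rod RNA at day 0, Gnat1 made up 11.6% and Gngt1 23.3% of the rod UMIs. In all 29 such barcodes of the 3 days they made up 11.1% and 24.9%. In the deposited counts Gnat1 made up 22.0% to 31.7% in strict immune and 10.6% to 11.9% in other barcodes of day 0.

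The shares were also tested over libraries, where no gene passed after adjustment, but a single gene could not have passed. Over the 7 libraries with at least 10 rod UMIs in both classes, the Gnat1 share was 25.9% ± 7.86 in strict immune and 10.97% ± 6.79 in other barcodes, and it was higher in strict immune barcodes in 7 of 7 (difference 14.9 ± 5.58 percentage points, SD). An exact paired permutation test gave p = 0.0156, the smallest it can give with 7 libraries. It became 0.141 after Benjamini-Hochberg adjustment over the 9 genes and did not pass. A single gene at that smallest p cannot pass this adjustment, so the outcome does not decide whether the Gnat1 share differed. Rom1 was lower in strict immune barcodes in 6 of 7 (difference −7.21 ± 8.21, exact p = 0.0312, adjusted 0.141), and the remaining 7 genes had adjusted p of 0.188 to 0.484. This comparison was chosen after the data were seen.

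**Figure D5:**
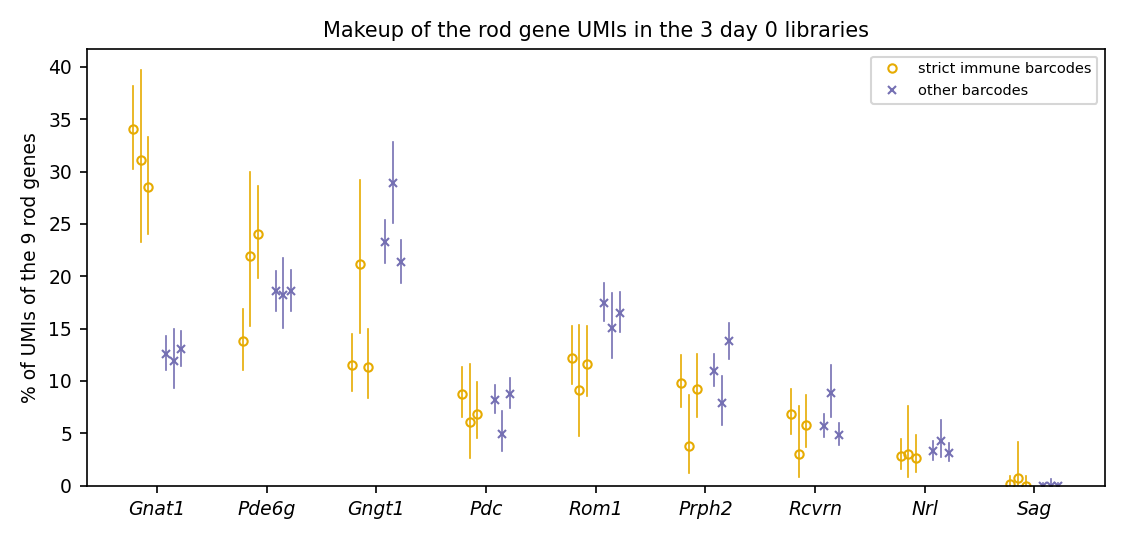
Share of each gene in the summed UMIs of the 9 rod genes in the 3 day 0 libraries (replicates 1 to 3 from left to right), for strict immune barcodes (circles) and other barcodes (crosses), with exact 95% binomial intervals. Gnat1 lies at 28.5% to 34.1% in strict immune and 11.9% to 13.0% in other barcodes, while Gngt1 is the highest of the crosses.

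Put as levels, pooled Gnat1 in strict immune barcodes at day 0 was 12.01% of its CPM in other barcodes (exact 95% interval 10.4% to 13.8%, counting error only), compared with 2.60% for Gngt1 (2.16% to 3.12%), 3.33% for Rom1, 3.63% for Prph2, 3.96% for Nrl, 4.68% for Pdc, 4.75% for Pde6g and 4.98% for Rcvrn. The libraries differed far more than these intervals, since the ratio ran from 3.65% to 21.7% over the 3 day 0 libraries for Gnat1, from 1.03% to 5.27% for Gngt1 and from 0.482% to 11.9% for Rcvrn. Within each of the 3 libraries Gnat1 had the highest ratio of the 8. Pooled in the same way were 34 genes of the rod and cone lists with at least 20 UMIs in other barcodes at day 0. The lowest was the channel gene Cnga1, at 1.27%. Gngt2, listed as a transducin gamma subunit of cones, stood apart at 104%, and the next highest was the rod list gene Reep6, at 12.2%. Whether Gngt2 RNA in immune barcodes came from photoreceptors was not tested. What sets this ratio was not tested.

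Sag itself, whose product is missing in these mice, was nearly absent. It had 8 UMIs in kept barcodes, 1 in each of 8 barcodes, 7 of them immune. The 114 barcodes with at least 2% rod RNA held 7016 UMIs of the 9 genes and 0 of Sag, which allows up to 3 (the one-sided 95% limit of a count of 0, counting error only). The part of the gene that is deleted is not given in the sources used here, and these libraries read the 3′ end of transcripts.

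Further rod genes were read from a list. The 40 genes of this list had 6464 ± 5147 CPM (SD, n = 3 libraries) in immune barcodes before light, 1128 ± 465 after 7 days and 874 ± 379 after 20 days. Of its 27 tested genes, edgeR called 8 lower and 0 higher at day 7, and 7 lower and 0 higher at day 20, beside the backgrounds of 2.26% and 0.467% of all genes called lower, so most of the list was not called. Of the 27, 17 had under 20 UMIs after light and passed the filter only through day 0, which fixed their direction, and these supplied 5 of the 8 calls at day 7 and 2 of the 7 at day 20. In other barcodes 21 of 26 were called lower at day 7 and 17 of 26 at day 20, with 0 higher, beside backgrounds of 6.67% and 5.42%. There 22 of the 26 passed only through day 0, and the remaining 4 were called at both days. In immune barcodes Gnb1, the transducin beta subunit that many cell types use, fell at day 7 (log2 −2.00, edgeR adjusted p = 0.0354) and was at −2.06 at day 20 (adjusted p = 0.0708). Unc119, which carries lipid-modified transducin, was at −2.27 at day 7 (edgeR adjusted p = 0.0575) and fell by 2.96 on the log2 scale at day 20 (adjusted p = 0.0384). Guca1b, an activator of guanylate cyclase, had 196 UMIs at day 0, 19 at day 7 and 1 at day 20, and its partner Guca1a had 217, 47 and 23. Tulp1, a transport protein of the outer segment, had 150, 25 and 4 UMIs, Rbp3, a retinoid carrier secreted by photoreceptors, had 135, 23 and 10, the channel gene Cnga1 had 94, 24 and 3, and Aipl1, a chaperone of the phosphodiesterase, had 112, 15 and 6.

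Cone genes were read beside the rod genes, and the difference between the lists was not tested. The 9 genes of the cone list had 1004 ± 1062, 741 ± 516 and 537 ± 190 CPM in immune barcodes. In either comparison with day 0, edgeR called 0 of the 6 tested. It called 190 and 43 of all 5573 genes in either direction at days 7 and 20, so 0 of 6 says little. Of all 5573 genes, 849 and 465 had an unadjusted edgeR p under 0.05 at days 7 and 20, as did 2 of the 6 in each. These 2 were Opn1sw, the short-wavelength cone pigment gene, named after its values were seen, and Pde6h, the inhibitory subunit of the cone phosphodiesterase. Opn1sw had 61, 2 and 4 UMIs at days 0, 7 and 20, with log2 changes of −4.32 and −3.20 (edgeR adjusted p = 0.0795 and 0.343). In other barcodes Opn1sw had 76, 2 and 1 UMIs, with log2 changes of −4.10 and −5.17 (edgeR adjusted p = 0.00377 and 0.000719). It was the only 1 of 6 cone genes called lower there, beside backgrounds of 6.67% and 5.42% of all genes. It passed the filter only through day 0 in both classes. In immune barcodes Gngt2 had 193, 113 and 88 of the 467, 263 and 166 UMIs of the cone list, with log2 changes of −0.35 and −0.29. It was lower in other than in immune barcodes, by 0.95 on the log2 scale (edgeR adjusted p = 0.0477), but was not called with DESeq2 size factors or library totals. In the fit that called Gngt2, 859 of the 6187 genes were called lower and the median of all genes was −1.14. Gngt2 was therefore no lower than the typical gene. Pde6h had 100, 20 and 12 UMIs in immune barcodes, with log2 changes of −2.17 and −2.31 (edgeR adjusted p = 0.249 and 0.465), the cone arrestin gene Arr3 had 42, 70 and 7, and Gnb3 had 39, 51 and 25. The levels of lists for other retinal cells in immune barcodes were not tested. Müller glia genes had 1617 ± 1091, 1203 ± 1298 and 2888 ± 2195 CPM at days 0, 7 and 20, and bipolar cell genes had 336 ± 455, 930.1 ± 1503 and 393 ± 303, with day 7 libraries from 46.0 to 2665 CPM. Glul alone supplied 656 of 793, 195 of 257 and 435 of 629 UMIs of the Müller glia list, so that level is mostly the level of a single gene. The 9 microglia and macrophage genes had 29877 ± 4886, 19708 ± 2769 and 30666 ± 3261 CPM.

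Among the 3119 further genes with at least 50 UMIs, the 8 whose log2(CPM + 10) followed the summed rod genes most closely over the 18 sums (9 libraries, 2 classes) included Cdhr1, Cngb1, Rdh12, Rp1, Platr17 and Slc24a1, with Pearson r of 0.927 to 0.945. These sums share libraries and differ in depth, so r is a description. Of the 9 genes themselves, 8 had r of 0.916 to 0.981 with their sum, and Sag had −0.21. Each of the 9 is part of that sum, so these r are partly built in and cannot be set against those of the further genes.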

How the data were processed

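Each value is the authors' deposited count of UMIs for a gene in a barcode, without normalization, made with Cell Ranger on mm10 per the labels' processing notes (version not given in the sources used here). Libraries were grouped by the treatment labels, which give days where the titles give hours. For the UMI totals of kept barcodes, the range over libraries is given above for each class. Intervals are exact Clopper-Pearson limits that cover counting error only. UMIs were summed per library and class and tested with edgeR 4.0.16 (quasi-likelihood, TMM, total of at least 20 UMIs, Benjamini-Hochberg over all genes tested, threshold 0.05, all 9 libraries in each fit). Classes were compared over 18 sums with library as a block. DESeq2 1.42.0, R 4.3.3 and Python 3.11.15 were also used. The edgeR script was tested on simulated data.

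The genes, lists and class rule were chosen with earlier results of these data known. All 9 genes are named, with the 8 further rod genes and 4 cone genes of most UMIs and 6 of the 8 genes of most similar pattern. A few genes that these rules or lists would name are not reported here. No barcode was removed for quality or as a doublet, except in the alternative with at least 200 genes and under 10% mitochondrial UMIs. Other alternatives varied barcodes, class limit, scaling, filter and tool. Libraries were not paired by replicate number, except in an alternative fit with a replicate block.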

Additional observations from a re-analysis of the deposited data

How the results depend on the processing

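The 8 tested rod genes were lower after light than at day 0 in both classes under every alternative run, and the number called depended on a few choices. For genes that passed the filter only through day 0, the direction was fixed and adds nothing here. These were Nrl in both classes, and Pdc, Prph2, Rcvrn and Nrl in the strict class. Such genes were not counted under the remaining alternatives. For the counts below, the share of all genes called is given above only for the deposited counts. Without that share, a count cannot be read as a result about the 8 genes. In immune barcodes at day 7, 5 of 7 tested genes were called after edgeR's filterByExpr, and 4 to 8 with 1 library left out. In other barcodes, 2 were called at day 7 in the deposited counts and 3 with the immune class from 5 UMIs, and 5 at day 20 after filterByExpr. For other against immune barcodes, 2 were called with the immune class from 1 UMI, where Gnat1 turned to −0.0900 and Pdc to −0.26 on the log2 scale, and 2 to 6 with 1 library left out, with Gnat1 from −1.01 to 0.99 and Pdc from −0.24 to 1.47. For the difference of that gap after light, the deposited counts called 8, with Gnat1 reversed at 1.99 and Gngt1 at 1.64, the strict class called 1, and leaving out 1 library called 0 to 3. In the deposited counts, barcodes listed in several libraries count in each. Other causes were not tested.

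Rod RNA in other barcodes averaged 2.90%, 1.66% and 1.49% at days 0, 7 and 20 in the deposited counts, 6.47% at day 0 where other barcodes had no class UMI (also with the immune class from 1 UMI) and 6.54% at day 0 after the quality filter, and 0.521% at day 7 with the immune class from 5 UMIs. At day 20 it averaged 0.686% after the quality filter. In immune barcodes it averaged 0.0888% at day 20 with the class from 1 UMI and 0.0535% at day 7 with the class from 5 UMIs. The share of immune barcodes with a rod UMI at day 7 was 32.6% at 800 UMIs and 36.1% unthinned. Same-numbered libraries of different days had correlations of deviations of −0.04 to 0.23 in immune barcodes (median 0.05). Those of different number had −0.21 to 0.14 (median −0.04). In other barcodes the ranges were −0.04 to 0.17 (median 0.04) and −0.19 to 0.14 (median −0.02). The ranges overlapped but the medians were higher for the same number, so a batch shared by number cannot be told from these values. A fit with the replicate block called 8, 8 and 0 genes in each class for day 7, day 20 and their difference, as without it. The share of all genes called in that fit was not counted.

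With 3 libraries per day and as few as 23 immune barcodes in day 7 replicate 3, the log2 changes of the 8 genes from day 7 to day 20 had standard errors of 0.64 to 1.15 in immune and 0.79 to 1.08 in other barcodes.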
